A study of Homo sapiens with 6 samples.

Results

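Expression of 35 genes of protein folding and of the unfolded protein response of the endoplasmic reticulum (ER) was followed in C4-2B cells given SR2211, XY011 or enzalutamide (ENZ). The 35 genes were chosen by symbol and comprised 3 stress sensors (ERN1, ATF6 and EIF2AK3), the transcription factor XBP1, 13 chaperones or cochaperones, 6 genes of disulfide formation, 10 genes of ER-associated degradation and 2 subunits of the translocon. All 35 were listed in each experiment and stood at 1 or more in either library of each pair, so none was lost to the low-value filter, out of 12155 genes that passed it in the SR2211 experiment, 12623 in the XY011 experiment and 19277 in the ENZ experiment. SELS, now SELENOS, was listed under its older name VIMP, and ERO1L is now ERO1A.

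C4-2B is an established prostate cancer line, a derivative of LNCaP that metastasises to bone. All 6 libraries came from cells in a medium of mostly charcoal-stripped serum, which imitates castration, and poly(A) RNA was sequenced. The groups were cells with SR2211 at 5 µM and their vehicle, cells with XY011 at 5 µM and their vehicle, and cells with ENZ at 20 µM and their vehicle, each for 48 h. Each group was 1 library of 1 cell line, so no difference below has a replicate check or a p-value. SR2211 is known as an inverse agonist of the nuclear receptor ROR-γ, which the series names as its subject, ENZ is an antagonist of the androgen receptor, and XY011 is known here by its code name alone.

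The ER folds proteins that enter the secretory pathway, and the unfolded protein response matches its capacity to the load. The sensor IRE1, encoded by ERN1, splices XBP1 mRNA so that an active transcription factor is made, ATF6 is cut in the Golgi apparatus to release another, and PERK, encoded by EIF2AK3, phosphorylates the translation factor eIF2alpha. The factors from XBP1 and ATF6 are known to raise genes for chaperones and for degradation of misfolded proteins, while the PERK arm raises ATF4 and DDIT3. Prostate luminal cells are secretory, and androgens are known to act on the IRE1 arm in prostate cancer cells.

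Changes are given as log2((treated + 1)/(vehicle + 1)) within an experiment, and a change of at least 1 in either direction passed a rule of size, under which a gene rose or fell. The SR2211 tables rested on 8163382 mapped reads with SR2211 and 8200243 in vehicle, worked out from the values, and the depth of the other 4 libraries is unknown. The tables came from 3 experiments processed separately, in RPKM for SR2211 and FPKM for XY011 and ENZ, so that experiment and compound cannot be told apart. Titles and agents put XY011 in the second experiment, where the extraction protocol has a different code in its place, and SR2211 stands in the extraction protocol of both ENZ libraries. All 8 luminal markers were at 1 or more in all 6 libraries. They summed to 913 RPKM with SR2211 and 2850.1 RPKM in vehicle, to 1009 FPKM with XY011 and 2801 FPKM in vehicle, and to 2669 FPKM with ENZ and 4609.6 FPKM in vehicle, so the sum was lower in each treated library. No leukocyte or endothelial marker reached 1. Fibroblast markers summed to 44.6 FPKM with ENZ and 28.1 FPKM in its vehicle (3 of 4 at 1 or more), against 3.45 to 5.80 in the other treated libraries and 2.00 to 3.71 in their vehicles (1 of 4). The part of the luminal and fibroblast transcripts in the results was not tested.

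Promoter sequence was examined first, because XBP1 and ATF6 act on the ER stress response element, searched here as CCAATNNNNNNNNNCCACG (ERSE) and as ATTGGNCCACG (ERSE-II) on both strands. The windows ran from 250 bases before to 50 after each annotated start in RefSeq, build GRCh38.p14, while the processing notes name GRCh37 and hg19 for the expression tables. PDIA3, DERL1 and DERL3 had no window, and 32 genes did. ERSE was in 7 of the 32 (21.9%) and in 25 of all 27305 genes with a window (0.0916%). ERSE-II was in 3 of the 32 (9.38%) and in 19 genes of all (0.0696%). The genes were chosen by name and include known targets of this response, so the higher shares among them are no independent result. The element of the unfolded protein response, TGACGTGG, was in HYOU1 and DNAJC10 (253 genes of all, 0.927%), where the HYOU1 match shares bases with an ERSE-II, and the element bound by ATF4 and its partners, TGATGNAA, was in HERPUD1 (1217 genes of all, 4.46%). The 12 matched sites follow, and each of the 10 genes had ERSE or ERSE-II but none had both. Fixed letters are in capitals and free positions in lower case, and each site is read 5′ to 3′ in the direction of the element.
XBP1 ERSE, chr22:28800603-28800621, minus strand: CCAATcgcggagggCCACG
HSPA5 ERSE, chr9:125241391-125241409, minus strand: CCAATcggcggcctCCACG
HSP90B1 ERSE, chr12:103930216-103930234, plus strand: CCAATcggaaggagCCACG
HSP90B1 ERSE, chr12:103930321-103930339, minus strand: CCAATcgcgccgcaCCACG
CALR ERSE, chr19:12938384-12938402, minus strand: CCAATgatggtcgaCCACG
CANX ERSE, chr5:179698778-179698796, plus strand: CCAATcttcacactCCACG
CRELD2 ERSE, chr22:49918554-49918572, minus strand: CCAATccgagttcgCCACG
PDIA6 ERSE, chr2:10812853-10812871, minus strand: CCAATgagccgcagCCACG
HYOU1 ERSE-II, chr11:119057380-119057390, plus strand: ATTGGaCCACG
HYOU1 ERSE-II, chr11:119057274-119057284, plus strand: ATTGGaCCACG
SDF2L1 ERSE-II, chr22:21642114-21642124, minus strand: ATTGGtCCACG
HERPUD1 ERSE-II, chr16:56932025-56932035, plus strand: ATTGGgCCACG

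Of the 10 genes with either element, 7 were chaperones or cochaperones, 1 was XBP1, 1 was the PDIA6 gene of disulfide formation and 1 was HERPUD1. No sensor and no translocon gene had an exact match to either. Whole windows are given for 5 genes, XBP1, HSPA5 and HERPUD1 as known targets of the response, and SDF2L1 and ERN1 as the genes with windows that passed the size rule with both compounds. Capitals mark exact matches to any of the 4 elements, and each window is read on the strand of its gene. Variants of the elements were not searched for.
ERN1, chr17:64130095-64130394, minus strand: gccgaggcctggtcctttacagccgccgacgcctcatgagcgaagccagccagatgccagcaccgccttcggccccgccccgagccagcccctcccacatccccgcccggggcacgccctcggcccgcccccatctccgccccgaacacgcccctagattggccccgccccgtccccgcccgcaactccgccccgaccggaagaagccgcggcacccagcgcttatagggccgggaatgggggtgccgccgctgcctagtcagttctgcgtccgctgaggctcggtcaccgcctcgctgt
SDF2L1, chr22:21642052-21642351, plus strand: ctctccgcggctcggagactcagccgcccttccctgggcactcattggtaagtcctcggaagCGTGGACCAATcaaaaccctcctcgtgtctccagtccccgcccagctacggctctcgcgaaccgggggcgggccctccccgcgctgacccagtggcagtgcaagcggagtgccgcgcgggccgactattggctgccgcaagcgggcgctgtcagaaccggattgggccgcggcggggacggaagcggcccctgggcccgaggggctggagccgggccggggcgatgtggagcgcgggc
XBP1, chr22:28800520-28800819, minus strand: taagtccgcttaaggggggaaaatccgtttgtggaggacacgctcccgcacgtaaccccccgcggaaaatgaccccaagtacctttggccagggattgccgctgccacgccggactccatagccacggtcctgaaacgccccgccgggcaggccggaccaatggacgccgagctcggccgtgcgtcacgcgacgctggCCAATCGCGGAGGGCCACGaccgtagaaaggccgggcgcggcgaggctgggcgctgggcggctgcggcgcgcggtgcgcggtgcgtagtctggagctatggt
HSPA5, chr9:125241294-125241593, minus strand: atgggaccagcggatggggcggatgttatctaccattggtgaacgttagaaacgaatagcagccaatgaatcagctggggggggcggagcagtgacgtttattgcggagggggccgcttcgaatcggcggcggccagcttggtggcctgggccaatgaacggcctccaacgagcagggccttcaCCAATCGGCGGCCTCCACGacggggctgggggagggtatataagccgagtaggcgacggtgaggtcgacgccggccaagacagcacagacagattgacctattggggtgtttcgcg
HERPUD1, chr16:56931892-56932191, plus strand: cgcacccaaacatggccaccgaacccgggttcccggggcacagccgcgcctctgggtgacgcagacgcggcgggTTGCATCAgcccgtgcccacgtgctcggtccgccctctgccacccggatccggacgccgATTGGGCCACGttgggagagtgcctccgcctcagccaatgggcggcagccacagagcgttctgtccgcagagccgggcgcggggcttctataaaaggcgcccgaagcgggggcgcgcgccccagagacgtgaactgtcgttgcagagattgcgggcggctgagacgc

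The ERSE began at position -52 from the start in XBP1 and at position -66 in HSPA5, and the HERPUD1 window held an ERSE-II and, on the other strand, the ATF4 element. The ERN1 window held none of these letters, which says nothing of what acts on it.

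With SR2211, 3 of the 35 genes rose (5.1% of all genes tested rose) and 2 fell (5.75% of all genes fell). ERN1, ATF6 and EDEM2 were the 3 that rose, and SDF2L1 and DERL3 the 2 that fell. With XY011, 5 rose (7.58% of all genes) and 3 fell (13.2% of all genes), namely ERN1, XBP1, DNAJB9, HERPUD1 and SEL1L upward and SDF2L1, CRELD2 and DERL3 downward. With ENZ none rose (3.68% of all genes) and none fell (4.68% of all genes). With an offset of 5 in place of 1, ERN1 still rose with both compounds, while the falls of SDF2L1 and DERL3 with both, the rises of ATF6 (0.94) and EDEM2 (0.87) with SR2211 and that of SEL1L (0.89) with XY011 no longer passed. Since a library is the sum of its cells, more RNA per cell and more cells with the RNA cannot be told apart in any of these values.

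The genes did not move together. Log2 changes ran from -1.66 to 2.28 with SR2211, from -1.62 to 2.47 with XY011 and from -0.85 to 0.63 with ENZ, and most genes lay below 0. Below 0 were 23 of 35 with SR2211 (54.4% of all genes), 25 of 35 with XY011 (57.7% of all genes) and 30 of 35 with ENZ (52.3% of all genes). Median changes of the 35 were -0.24 with SR2211, -0.38 with XY011 and -0.27 with ENZ, beside -0.07, -0.14 and -0.02 for all genes tested. Centring on the median gene or quantile scaling moved the medians of the 35 toward 0 and turned none of them.

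**Figure D1:**
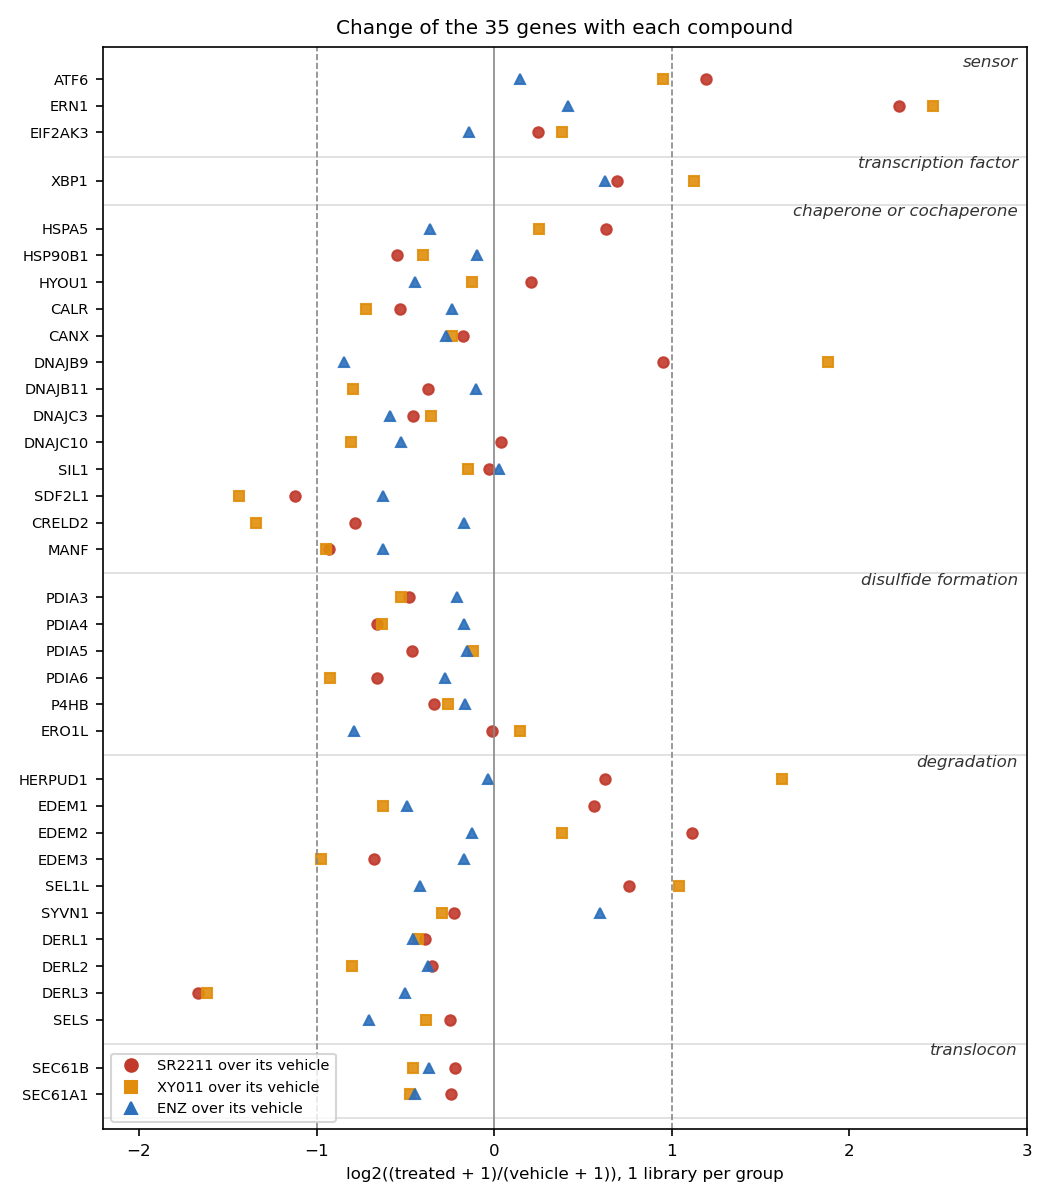
Each row is 1 of the 35 genes, grouped by role, and the horizontal axis is the log2 change of the treated library over its own vehicle, 1 library per group. Red circles are SR2211, orange squares XY011 and blue triangles ENZ, and dashed lines mark the size rule of 1. ERN1 lies farthest right with both compounds (2.28 and 2.47), DERL3 farthest left (-1.66 and -1.62), and no ENZ value passes a line.

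The sensors were above 0 with both compounds. ERN1, whose protein cuts XBP1 mRNA, had 28.7 RPKM with SR2211 and 5.12 RPKM in vehicle, and 30.7 FPKM with XY011 and 4.71 FPKM in vehicle. It had 9.81 FPKM with ENZ and 7.12 FPKM in vehicle, so each treated library stood above its vehicle, and the log2 changes were 2.28, 2.47 and 0.41. Among all genes tested these changes were at the 99.4th percentile with SR2211, the 99.5th with XY011 and the 82.1st with ENZ. In vehicle ERN1 was the lowest of the 35 in the SR2211 and XY011 experiments and the second lowest in the ENZ experiment.

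ATF6, the sensor that is itself a transcription factor precursor, had 22.2 RPKM with SR2211 and 9.14 in vehicle, 22.2 FPKM with XY011 and 11.0 in vehicle, and 5.60 FPKM with ENZ and 4.95 in vehicle. The log2 change passed the size rule with SR2211 (1.19) and lay just short of it with XY011 (0.95), where centring on the median gene gave 1.08 and quantile scaling 1.06. With ENZ it was 0.15. EIF2AK3, the PERK kinase gene, had 16.1 RPKM with SR2211 and 13.4 in vehicle, 12.6 FPKM with XY011 and 9.46 in vehicle, and 10.9 FPKM with ENZ and 12.1 in vehicle. Its log2 changes of 0.25, 0.38 and -0.14 were within the size rule in all 3 experiments, and the 3 sensors were thus unequal in change.

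XBP1 was higher in the treated library of all 3 experiments. It had 300.2 RPKM with SR2211 and 185 in vehicle, 307 FPKM with XY011 and 140.2 in vehicle, and 346 FPKM with ENZ and 223 in vehicle. The log2 changes were 0.69, 1.12 and 0.63, of which the XY011 value passed the size rule. XBP1, ERN1 and ATF6 were the only 3 of the 35 genes above 0 in all 3 experiments, except that quantile scaling also brought HERPUD1 with ENZ to just above 0. The share of all genes above 0 in all 3 experiments was not worked out. The tables give 1 value per gene, so the spliced and unspliced forms of XBP1 mRNA, which differ in the protein they encode, were not measured apart.

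**Figure D2:**
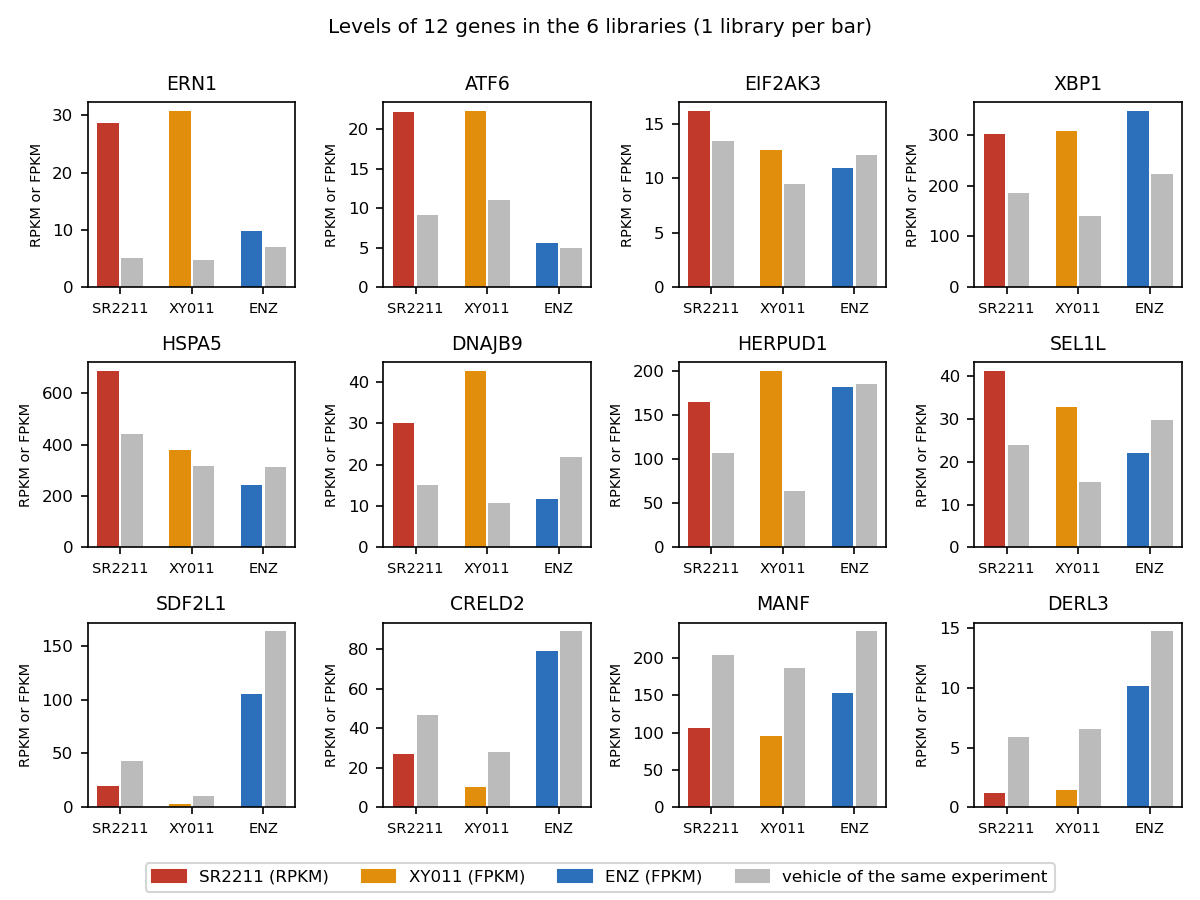
Bars give the deposited level of 12 of the genes in each of the 6 libraries, in RPKM for the SR2211 experiment and FPKM for the others, on axes from 0, with coloured bars for treated libraries and the grey bar to the right of each for its vehicle. ERN1 stands at 28.7 RPKM and 30.7 FPKM with the 5 µM compounds and at 4.71 to 9.81 in the other libraries, whose tables were normalized separately, while SDF2L1, CRELD2, MANF and DERL3 are lower in the treated library of every pair.

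Among the 13 chaperones and cochaperones, 0 rose and 1 fell with SR2211, 1 rose and 2 fell with XY011, and none did either with ENZ. Over all genes tested 5.1% rose and 5.75% fell with SR2211, 7.58% rose and 13.2% fell with XY011, and 3.68% rose and 4.68% fell with ENZ, and counts this small among 13 genes set nothing apart from those shares. Their median log2 changes were -0.37 with SR2211, -0.40 with XY011 and -0.36 with ENZ. HSPA5 encodes BiP, the main ER Hsp70, which binds and restrains the sensors. It had 685 RPKM with SR2211 and 442 in vehicle, 379.9 FPKM with XY011 and 318 in vehicle, and 245 FPKM with ENZ and 314 in vehicle. The log2 changes of 0.63, 0.26 and -0.36 were all within the size rule, above 0 with both compounds and below 0 with ENZ.

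DNAJB9, a cochaperone of BiP also called ERdj4, had the largest positive change of the 13. It had 42.6 FPKM with XY011 and 10.8 in vehicle, a log2 change of 1.88, and 30.2 RPKM with SR2211 and 15.1 in vehicle, a log2 change of 0.95 that lay just short of the size rule and passed it under both scalings (1.03 and 1.05). With ENZ it went the other way, with 11.7 FPKM against 21.9 FPKM in vehicle (log2 -0.85), the lowest change of the 35 there. Exons of DNAJB9 overlap those of THAP5 on the opposite strand, whose log2 changes were 0.24 with SR2211, 0.27 with XY011 and -0.34 with ENZ.

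SDF2L1, CRELD2 and MANF were lower with every compound. SDF2L1, a partner of the cochaperone DNAJB11, had 19.4 RPKM with SR2211 and 43.4 in vehicle, 3.37 FPKM with XY011 and 10.85 in vehicle, and 106 FPKM with ENZ and 163 in vehicle. Its log2 changes were -1.12, -1.44 and -0.62, and it fell with both 5 µM compounds. CRELD2, a cysteine-rich ER resident protein that stressed cells also secrete, had 26.8 RPKM with SR2211 and 46.8 in vehicle, 10.4 FPKM with XY011 and 27.9 in vehicle, and 79.2 FPKM with ENZ and 89.0 in vehicle. It fell with XY011 (log2 -1.34), and the values were -0.78 with SR2211 and -0.17 with ENZ. MANF, a BiP-binding protein that is partly secreted, had 106 RPKM with SR2211 and 203 in vehicle, 96.0 FPKM with XY011 and 186 in vehicle, and 152 FPKM with ENZ and 235 in vehicle. Its log2 changes of -0.93 and -0.95 were nearly equal and just within the size rule, and that with ENZ was -0.62.

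HSP90B1, CALR, CANX and HYOU1 passed the size rule in no experiment. HSP90B1, the Hsp90 of the ER, had 263 RPKM with SR2211 and 384 in vehicle, 258 FPKM with XY011 and 341 in vehicle, and 267 FPKM with ENZ and 285 in vehicle. CALR, a lectin chaperone that holds newly glycosylated proteins, had 663 RPKM with SR2211 and 959 in vehicle, 667 FPKM with XY011 and 1100.3 in vehicle, and 1009.6 FPKM with ENZ and 1190.3 in vehicle. Both were lower in each treated library, with log2 changes of -0.53, -0.72 and -0.24 for CALR and -0.54, -0.40 and -0.10 for HSP90B1. CANX, the membrane-bound relative of CALR, had 187 RPKM with SR2211 and 211 in vehicle, 156 FPKM with XY011 and 184 in vehicle, and 540.3 FPKM with ENZ and 653 in vehicle. HYOU1, a large Hsp70 relative that helps BiP exchange its nucleotide, had 173 RPKM with SR2211 and 149.7 in vehicle, 156 FPKM with XY011 and 170.5 in vehicle, and 119 FPKM with ENZ and 162 in vehicle. The HYOU1 change with XY011 (-0.12) lay so near 0 that both scalings turned its sign. HSP90B1 has processed pseudogenes, and how reads shared with them were assigned is not given in the sources used here.

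The other cochaperones of BiP also differed among themselves. DNAJB11, which brings clients to BiP, had log2 changes of -0.37, -0.79 and -0.10 with SR2211, XY011 and ENZ. Its levels were 58.3 RPKM with SR2211 and 75.7 in vehicle, 34.5 FPKM with XY011 and 60.5 in vehicle, and 253 FPKM with ENZ and 272 in vehicle. TBCCD1, which overlaps DNAJB11 on the opposite strand, had log2 changes of -0.33, -0.55 and -0.53. DNAJC3, a cochaperone first known as an inhibitor of eIF2alpha kinases, had 23.7 RPKM with SR2211 and 32.9 in vehicle, 15.7 FPKM with XY011 and 20.3 in vehicle, and 9.82 FPKM with ENZ and 15.2 in vehicle. All 3 DNAJC3 changes lay below 0 (-0.46, -0.35 and -0.58). DNAJC10, a disulfide reductase that works with BiP, had 29.4 RPKM with SR2211 and 28.6 in vehicle, a change of 0.04, but 16.2 FPKM with XY011 and 29.01 in vehicle, a change of -0.81. With ENZ DNAJC10 had 23.0 FPKM against 33.4 in vehicle. SIL1, a nucleotide exchange factor of BiP, was near its vehicle in all 3 experiments, with 24.5 RPKM with SR2211 and 25.0 in vehicle, 19.1 FPKM with XY011 and 21.3 in vehicle, and 138 FPKM with ENZ and 135 in vehicle.

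None of the 6 genes of disulfide formation rose or fell in any experiment, and their log2 changes lay in a narrower range than those of the chaperones, from -0.66 to -0.01 with SR2211 and from -0.93 to 0.15 with XY011. Their medians were -0.47 with SR2211, -0.39 with XY011 and -0.19 with ENZ, and 5 of them (PDIA3, PDIA4, PDIA5, PDIA6 and P4HB) were below 0 in all 3 experiments, except that both scalings brought PDIA5 with XY011 to just above 0. How many of all genes lay below 0 in all 3 experiments was not counted. P4HB, the classical protein disulfide isomerase and a subunit of prolyl hydroxylase, had 328 RPKM with SR2211 and 416 in vehicle, 312 FPKM with XY011 and 373 in vehicle, and 1744 FPKM with ENZ and 1952 in vehicle. PDIA3, the isomerase that works with CALR and CANX, had 176 RPKM with SR2211 and 246 in vehicle, 242 FPKM with XY011 and 348 in vehicle, and 574 FPKM with ENZ and 665 in vehicle. Both were lower in each treated library, by less than the size rule. ELL3, which overlaps PDIA3 on the opposite strand, had log2 changes of -0.72 with SR2211, -0.64 with XY011 and -0.11 with ENZ.

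PDIA4 and PDIA6, which assist BiP and HSP90B1 with disulfides, were the lowest of the 6 by their mean over both compounds. PDIA4 had 127 RPKM with SR2211 and 202 in vehicle, 125 FPKM with XY011 and 194 in vehicle, and 171 FPKM with ENZ and 192 in vehicle. PDIA6 had 67.0 RPKM with SR2211 and 106 in vehicle, 78.0 FPKM with XY011 and 149 in vehicle, and 137 FPKM with ENZ and 166 in vehicle. The log2 changes were -0.66, -0.63 and -0.17 for PDIA4 and -0.66, -0.93 and -0.28 for PDIA6. Exons of PDIA6 overlap those of ATP6V1C2 on the opposite strand, at 15.3 FPKM with XY011 and 34.8 in vehicle (log2 -1.13). ATP6V1C2 stood below 1 in both SR2211 libraries and had a log2 change of -0.22 with ENZ. Its part in the PDIA6 values was not tested. PDIA5, a further isomerase, had 32.6 RPKM with SR2211 and 45.4 in vehicle, 45.8 FPKM with XY011 and 49.9 in vehicle, and 61.7 FPKM with ENZ and 68.7 in vehicle. ERO1L, the oxidase that recharges these isomerases, stood apart, with 32.5 RPKM with SR2211 and 32.8 in vehicle, 24.0 FPKM with XY011 and 21.6 in vehicle, but 21.8 FPKM with ENZ and 38.5 in vehicle. Its log2 changes were -0.01, 0.15 and -0.79, and the first of these turned positive under both scalings.

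Genes of ER-associated degradation spread more widely than the folding enzymes. With SR2211 1 of the 10 rose and 1 fell, with XY011 2 rose and 1 fell, and with ENZ none did, beside 5.1% of all genes higher and 5.75% lower with SR2211, 7.58% and 13.2% with XY011, and 3.68% and 4.68% with ENZ. HERPUD1, a membrane protein of the HRD1 ubiquitin ligase complex, had 165 RPKM with SR2211 and 107 in vehicle, 199.99 FPKM with XY011 and 64.2 in vehicle, and 182 FPKM with ENZ and 186 in vehicle. It rose with XY011 (log2 1.62), was at 0.63 with SR2211 and lay close to its vehicle with ENZ (-0.03). SEL1L, the adaptor of that ligase, had 41.2 RPKM with SR2211 and 23.9 in vehicle, 32.8 FPKM with XY011 and 15.4 in vehicle, and 22.1 FPKM with ENZ and 29.9 in vehicle. SEL1L also rose with XY011 (log2 1.04), with 0.76 for SR2211 and -0.42 for ENZ.

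SYVN1, the ligase HRD1 itself, did not follow its adaptor. It had 41.5 RPKM with SR2211 and 48.7 in vehicle, 34.3 FPKM with XY011 and 42.3 in vehicle, and 42.8 FPKM with ENZ and 27.9 in vehicle. The signs were the reverse of those of SEL1L in each experiment, with log2 changes of -0.23, -0.30 and 0.60. MRPL49, which overlaps SYVN1 on the opposite strand, had log2 changes of -0.44, -0.05 and -0.09.

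The EDEM genes encode proteins that trim mannose from misfolded glycoproteins and mark them for degradation, and their changes differed in sign and size. EDEM1 had 26.1 RPKM with SR2211 and 17.4 in vehicle, but 8.19 FPKM with XY011 and 13.2 in vehicle, and 13.3 FPKM with ENZ and 19.0 in vehicle. Its log2 change was 0.56 with SR2211 and -0.62 with XY011, the widest gap between both compounds among the 35. EDEM2 rose with SR2211, to 20.2 RPKM against 8.80 in vehicle (log2 1.11), and had 13.4 FPKM with XY011 and 10.0 in vehicle, and 14.9 FPKM with ENZ and 16.3 in vehicle. EDEM3 was lower in each treated library, with 12.3 RPKM with SR2211 and 20.3 in vehicle, 7.06 FPKM with XY011 and 14.8 in vehicle, and 15.3 FPKM with ENZ and 17.4 in vehicle. The EDEM3 change with XY011 (-0.97) was just within the size rule and passed it with an offset of 0.1 (-1.06).

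The derlins are membrane proteins of the exit channel for misfolded proteins, and all 3 were below 0 in each experiment. DERL3 fell most, with 1.18 RPKM with SR2211 and 5.92 in vehicle, 1.47 FPKM with XY011 and 6.57 in vehicle, and 10.1 FPKM with ENZ and 14.7 in vehicle. It fell with both 5 µM compounds (log2 -1.66 and -1.62) and was at -0.50 with ENZ. Exons of DERL3 overlap those of SMARCB1 on the opposite strand, at 45.6 RPKM with SR2211 and 45.4 in vehicle, and its log2 changes were 0.01, -0.03 and 0.31. The use of strand in counting is not given in the sources used here. Reads of overlapping exons therefore cannot be told apart, and in GENCODE 29 exons of 17 of the 35 genes overlap those of another gene, 15 of them one on the opposite strand.

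DERL1 had 29.4 RPKM with SR2211 and 38.8 in vehicle, 23.2 FPKM with XY011 and 31.5 in vehicle, and 42.6 FPKM with ENZ and 58.9 in vehicle. DERL2 had 29.9 RPKM with SR2211 and 38.3 in vehicle, 19.1 FPKM with XY011 and 33.9 in vehicle, and 59.6 FPKM with ENZ and 77.6 in vehicle. Both kept within the size rule, with DERL2 lowest with XY011 (log2 -0.80). SELS, a selenoprotein that ties the channel to the ATPase p97, had 28.7 RPKM with SR2211 and 34.3 in vehicle, 20.1 FPKM with XY011 and 26.5 in vehicle, and 51.9 FPKM with ENZ and 85.1 in vehicle. Its log2 changes were -0.25 with SR2211, -0.38 with XY011 and -0.70 with ENZ.

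The translocon subunits carry proteins into the ER, and both were lower in each treated library without passing the size rule. SEC61A1, the channel itself, had 245 RPKM with SR2211 and 289 in vehicle, 182 FPKM with XY011 and 253 in vehicle, and 296 FPKM with ENZ and 404 in vehicle. SEC61B, a small subunit beside it, had 111 RPKM with SR2211 and 129 in vehicle, 70.1 FPKM with XY011 and 96.7 in vehicle, and 253 FPKM with ENZ and 327 in vehicle. RUVBL1, which overlaps SEC61A1 on the opposite strand, had log2 changes of -1.19, -1.63 and -0.23.

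For the SR2211 experiment the reads behind each value were recovered, as the smallest whole numbers that give both values at 1 gene length. ERN1 had 938 reads with SR2211 and 168 in vehicle, a ratio of 5.61 with an exact 95% interval of 4.75 to 6.65. DERL3 had 31 reads with SR2211 and 156 in vehicle, a ratio of 0.200 (0.131 to 0.295), and SDF2L1 had 139 with SR2211 and 312 in vehicle, a ratio of 0.448 (0.364 to 0.548). EDEM2 had 48 with SR2211 and 21 in vehicle, a ratio of 2.30 (1.35 to 4.04). Its numbers match a length of 291 bases, the shortest among the 35 genes, so they are lower bounds of its reads. HSPA5 had 22228 with SR2211 and 14390 in vehicle, a ratio of 1.55 (1.52 to 1.58). For 32 genes the interval left out a ratio of 1, and for DNAJC10, SIL1 and ERO1L it held 1. Such intervals were not worked out for all genes tested, so this count does not set these genes apart from others. These intervals cover counting error alone, as reads copied by PCR are not independent molecules, and say nothing of the spread between cultures. Where the true reads are a multiple of these numbers, the ratios stay and the intervals given are wider than they should be.

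**Figure D3:**
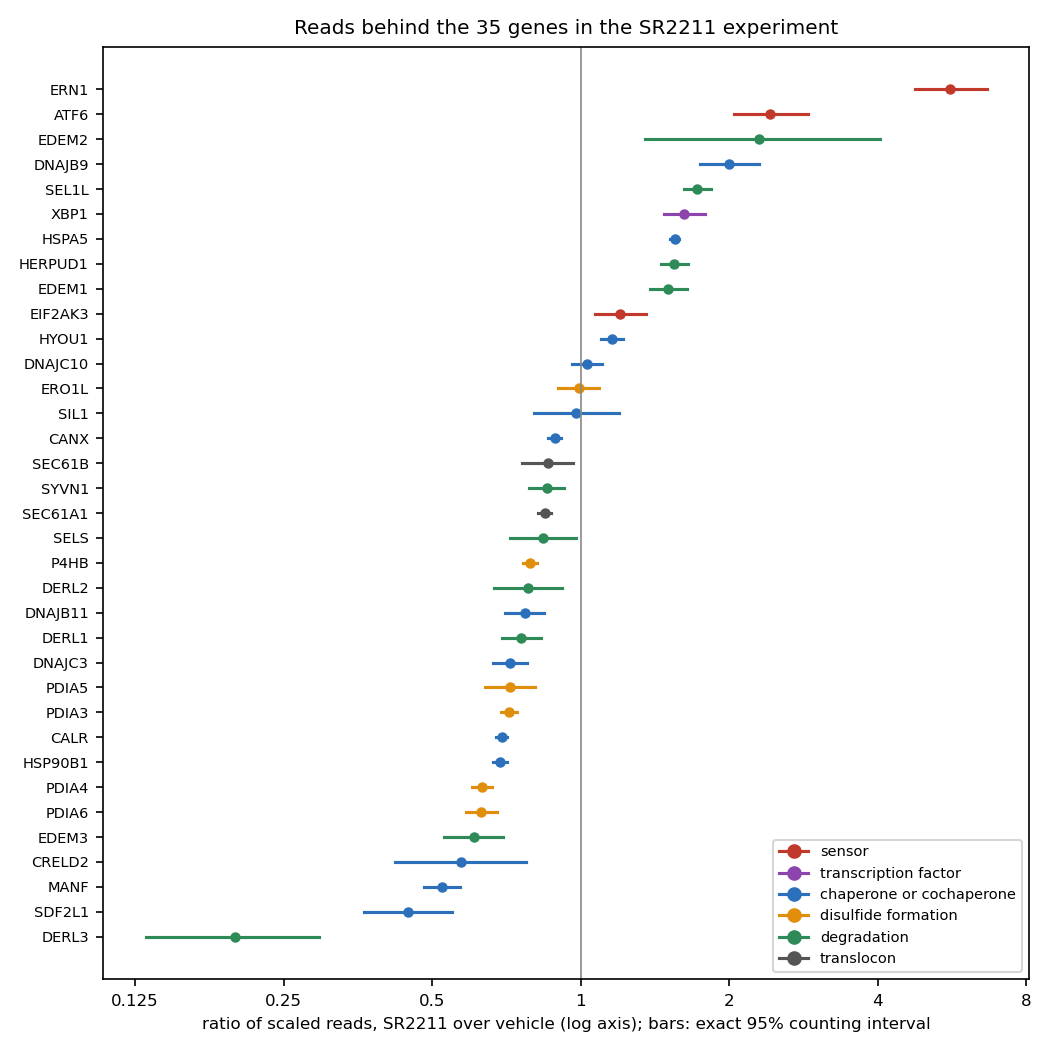
Points are the ratio of reads after scaling to mapped reads, SR2211 over vehicle, for the 35 genes on a log axis, lines are exact 95% counting intervals, and colours give the role. ERN1 (5.61) and DERL3 (0.200) end the order, both sensors that rose stand at the top, and the genes of disulfide formation lie between 0.629 and 0.990.

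SR2211 and XY011, both at 5 µM, gave the 35 genes much the same order. The change had the same sign in 31 of 35 (88.6%), beside 79.4% of the 11637 genes tested in both experiments. Across the 35 genes, which share their libraries, Pearson's r was 0.89 and Spearman's rho 0.84, beside 0.79 and 0.76 over all genes. Higher with both was 1 of 35, ERN1 (3.25% of all genes), and lower with both were 2, SDF2L1 and DERL3 (4.58% of all genes). At 1.5-fold or more, 8 of 35 were higher with SR2211 (13.8% of all genes) and 6 with XY011 (17% of all genes), while 7 were lower with SR2211 (17.2% of all genes) and 12 with XY011 (27.8% of all genes). Past 1.5-fold with both were 6 upward (9.3% of all genes), ERN1, ATF6, XBP1, DNAJB9, HERPUD1 and SEL1L, and 7 downward (13.7% of all genes), SDF2L1, CRELD2, MANF, PDIA4, PDIA6, EDEM3 and DERL3.

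Where the compounds differed, the gap had no test, since each stands on 1 pair from its own experiment. EDEM1, HYOU1 and DNAJC10 were above 0 with SR2211 and below 0 with XY011, and ERO1L the reverse. The log2 change with SR2211 less that with XY011 was 1.19 for EDEM1, 0.84 for DNAJC10 and 0.73 for EDEM2, and -0.998 for HERPUD1 and -0.93 for DNAJB9. The vehicles also differed, but in level rather than in change, so they give no scale for such gaps. Between the vehicle of the SR2211 experiment and that of the XY011 experiment, 11% of all genes were at least 1 apart on the log2 scale, and of the 35 SDF2L1 alone was (43.4 RPKM and 10.85 FPKM), in tables that were normalized separately.

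**Figure D4:**
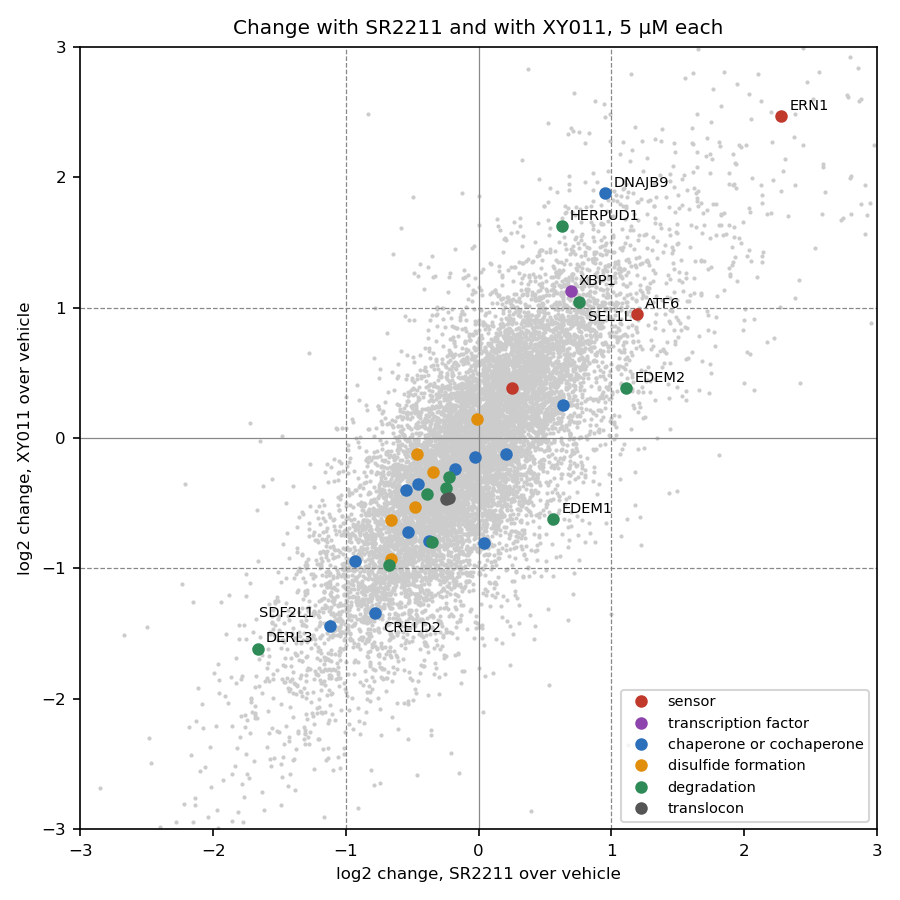
The horizontal axis is the log2 change with SR2211 over vehicle and the vertical axis that with XY011 over vehicle, grey points are all genes tested in both (57 lie beyond the axes), coloured points are the 35 genes by role, and dashed lines mark the size rule. ERN1 lies past both lines at the upper right, SDF2L1 and DERL3 past both at the lower left, and EDEM1 is on opposite sides of 0.

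With ENZ no gene of the 35 passed the size rule, and at 1.5-fold or more there were 2 higher (11.6% of all genes) and 5 lower (12.4% of all genes). Higher were XBP1 (log2 0.63) and SYVN1 (0.60), and lower were DNAJB9 (-0.85), ERO1L (-0.79), SELS (-0.70), SDF2L1 (-0.62) and MANF (-0.62). EIF2AK3, HSPA5, DNAJB9, HERPUD1, EDEM2 and SEL1L were above 0 with both 5 µM compounds and below 0 with ENZ, except that quantile scaling brought HERPUD1 with ENZ to just above 0. Genes with these signs were not counted over all genes tested. The dose and the experiment of ENZ differ from those of the other compounds, so the values stand side by side without a comparison. The most abundant gene took 17.0% of the summed FPKM with ENZ and 13.5% in its vehicle, against 1.65% to 4.35% in the other 4 libraries, and its part in the ENZ values was not tested.

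Levels per gene length were ranked within each vehicle, from the highest of the 35 genes. CALR was the highest in the vehicles of the SR2211 and XY011 experiments and the second highest in that of the ENZ experiment, where P4HB led. HSPA5 had rank 2 in the SR2211 vehicle, rank 5 in the XY011 vehicle and rank 7 in the ENZ vehicle. Together the 35 genes made up 1.03% of the summed RPKM with SR2211 and 1.15% in vehicle, 0.752% of the summed FPKM with XY011 and 0.916% in vehicle, and 0.377% with ENZ and 0.472% in vehicle. The treated library thus had the smaller share in each pair.

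The changes were set beside the promoter elements printed above. Only exact matches were counted, so genes counted as having neither element may still hold a variant of it. With SR2211, 0 of the 10 genes with an ERSE or ERSE-II rose and 1 fell, and of the 22 with a window and neither element 3 rose and 0 fell. With XY011, 2 rose (XBP1 and HERPUD1) and 2 fell (SDF2L1 and CRELD2) of the 10, and 3 rose and 0 fell of the 22. Of all genes tested, 5.1% rose and 5.75% fell with SR2211, and 7.58% rose and 13.2% fell with XY011. Counts of 0 to 3 are too small to set either group apart from these shares. Median log2 changes of the 10 and the 22 were -0.35 and -0.22 with SR2211, -0.32 and -0.32 with XY011, and -0.26 and -0.27 with ENZ. Genes with the same fixed letters went both ways, as with XBP1 (1.12) and CRELD2 (-1.34) for ERSE and HERPUD1 (1.62) and SDF2L1 (-1.44) for ERSE-II with XY011.

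Other genes of the same pathways were taken from 9 lists. These lists were chosen with earlier results of these data known, so their counts beside the shares of all genes are no test. The arm of eIF2alpha, which PERK shares with other kinases, had 6 of 11 genes higher and 0 lower with SR2211 (5.1% of all genes higher and 5.75% lower), and likewise with XY011 (7.58% and 13.2%), with medians of 1.48 and 1.73. With ENZ 1 of 11 rose, the glutathione-degrading enzyme gene CHAC1 (log2 1.05), and the median was 0.41. ATF4, the transcription factor whose translation this arm favours, had 605.6 RPKM with SR2211 and 216 in vehicle, and 1470.5 FPKM with XY011 and 319.7 in vehicle. DDIT3, a death-linked factor downstream, had 302 RPKM with SR2211 and 20.2 in vehicle, and 619 FPKM with XY011 and 22.5 in vehicle. With ENZ the values were 467 FPKM for ATF4 against 307 in vehicle, and 44.5 FPKM for DDIT3 against 28.4 in vehicle. PPP1R15A, the phosphatase subunit that reverses eIF2alpha phosphorylation, had log2 changes of 2.20, 1.73 and 0.57 with SR2211, XY011 and ENZ, and the pseudokinase gene TRIB3 had 2.94, 3.20 and 0.84. The factor ATF3 and CHAC1 completed the 6, at 4.24 and 3.73 with SR2211 and 4.22 and 3.47 with XY011. In the SR2211 experiment DDIT3 rested on 2933 reads with SR2211 and 197 in vehicle, a ratio of 14.96 (12.9 to 17.4).

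The other 8 lists are read against all genes tested, of which 5.1% rose and 5.75% fell with SR2211, 7.58% and 13.2% with XY011, and 3.68% and 4.68% with ENZ. Of 9 tested genes of ATF6 processing and related factors, CREB3L4, a membrane-bound factor of the same kind as ATF6, was the 1 that fell with SR2211 (log2 -1.73) and with XY011 (-2.61), and none rose. In translocation and signal peptide cleavage, 0 of 22 passed with SR2211 and 3 fell with XY011 (SRPRB, SPCS3 and SEC11C, named after their values were seen), and in glycosylation 0 of 12 passed in any experiment. Among other folding enzymes PRDX4, a peroxiredoxin of the ER, fell with both (-1.11 and -1.25), as the 1 of 18 with SR2211 and with TMX1 as 2 of 19 with XY011. Among 16 other degradation genes UBE2G2, a ubiquitin-conjugating enzyme gene, fell with both (-1.001 and -1.59), as the 1 with SR2211 and with UFD1L as 2 with XY011. ITPR1, a calcium release channel, rose with both (1.27 and 1.72) as the 1 of 6 calcium genes, and CCPG1, a receptor for autophagy of the ER, rose with both (1.60 and 1.63) as the 1 of 9 in its list. In ER export 1 of 19 rose, SEC24B with XY011. With ENZ, 1 of 7 calcium genes passed, upward (ATP2A3, log2 1.11), and none in the other 7 lists. ATP2A3 had 1.46 FPKM with ENZ and 0.141 in vehicle, and ITPR1 had 3.85 FPKM with XY011 and 0.47 in vehicle. In those pairs both genes passed the low-value filter through the treated library alone, so their rises there carry no weight.

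**Figure D5:**
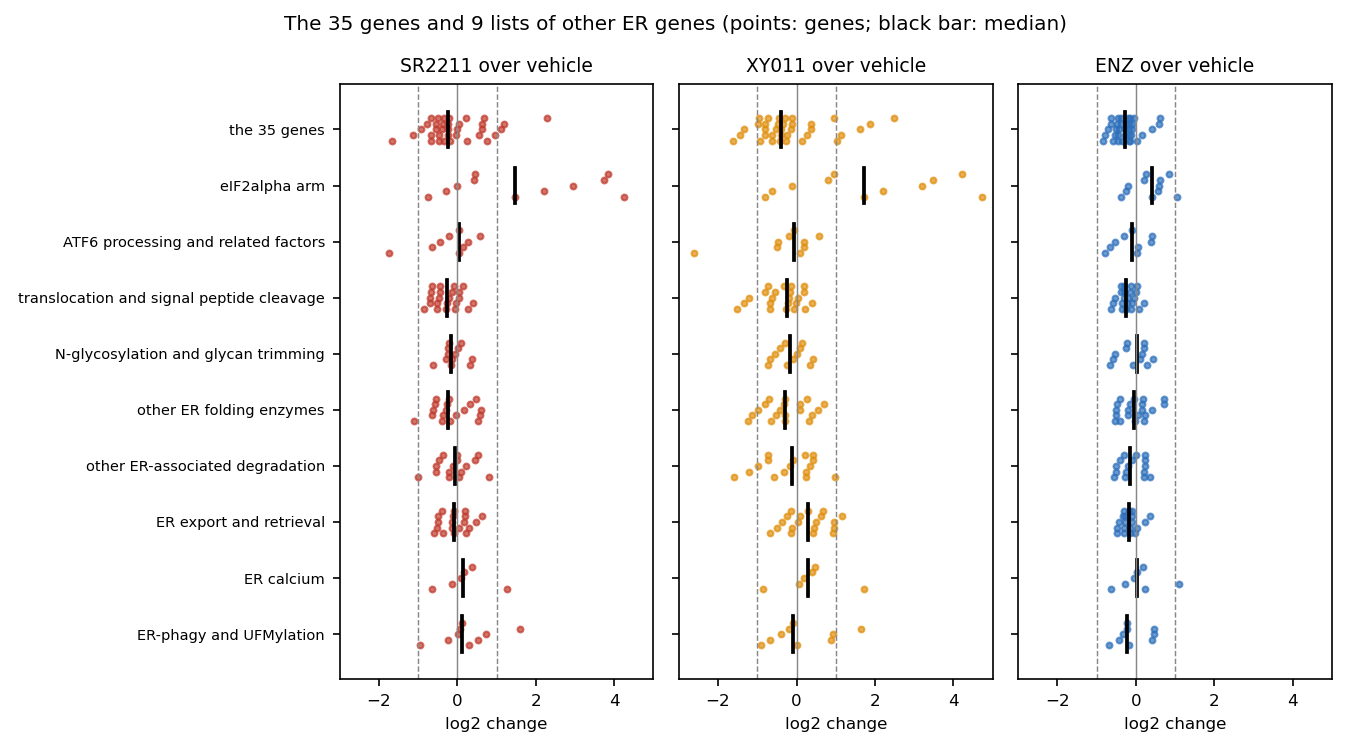
Rows are the 35 genes and 9 lists of other ER genes, panels are SR2211, XY011 and ENZ over their vehicles, the horizontal axis is the log2 change, points are genes and black bars are list medians. The eIF2alpha arm has medians of 1.48, 1.73 and 0.41, and the 35 genes have -0.24, -0.38 and -0.27. The other lists have medians between -0.30 and 0.29. All rows were chosen with earlier results of these data known, so their contrast is no test.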

How the data were processed

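Expression was read from 6 deposited gene tables, 1 per library. The tables of the SR2211 experiment hold RPKM values (reads scaled for gene length and mapped reads) as computed and deposited by the authors, and those of the XY011 and ENZ experiments hold FPKM values (the same for fragments) as deposited. The builds GRCh37 and hg19 and the tools BWA, Bowtie, Cufflinks and Cuffdiff are named in the submitters' processing notes. Their versions, their role for each table, the gene annotation and the handling of strand are not stated in the sources used here. Genes without reads stand at 0.01 in the SR2211 tables and at 0.001 in the XY011 tables.

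Genes were matched by Entrez identifier (SR2211, XY011) or by current or older symbol (ENZ). Lines of 1 gene were summed, small RNAs were dropped, and genes at 1 or more in either library of a pair were kept. The change is log2((treated + 1)/(vehicle + 1)), called at 1 or more. With 1 library per group there is no test across genes, no limma fit and no p-value. Mapped reads of the SR2211 pair were the numbers that made microRNA values whole reads (25 of 26 genes with SR2211, 17 of 17 in vehicle), and gene lengths of 200 to 20000 bases were then searched for whole reads in both libraries within 0.0002 read. Intervals are exact (Clopper-Pearson) at 95%, for counting error alone. The size rule and the recovery of reads were run on simulated data with known answers. Changes there were set well beyond the rule, so that run checked the code and says nothing of false calls in these data. Promoter windows are those of RefSeq, and an element was counted once per gene over all its starts.

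The 35 genes, the 9 other lists and the markers were chosen with earlier results of these data known. The text names all 35 genes, DDIT3, ATF4, PPP1R15A and TRIB3, and from each list at most 3 genes with the largest mean change among those past the size rule with both compounds. THAP5, TBCCD1, ELL3, ATP6V1C2, MRPL49, SMARCB1 and RUVBL1, which overlap a member, were also named, and other overlapping genes were not. CHAC1 with ENZ, SRPRB, SPCS3, SEC11C, TMX1, UFD1L, SEC24B and ATP2A3 were named after their values were seen. Alternatives were another offset, filter, scaling, size rule or matching. Python 3.11.15, numpy 2.4.6, pandas 2.3.3, scipy 1.17.1 and matplotlib 3.10.9 were used.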

Additional observations from a re-analysis of the deposited data

How the results depend on the processing

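Counts and medians of the 35 genes were recomputed under 8 alternatives, and a median was taken as moved at a shift of 0.1 or more. With an offset of 5, SR2211 had 1 gene higher and 0 lower, XY011 had 1 lower, and 0 were lower with both, since SDF2L1 and DERL3 (log2 -0.99 and -0.82 with SR2211, -0.92 and -0.84 with XY011) no longer passed. Over all genes that offset gave 2.11% higher and 2.48% lower with SR2211, 3.12% and 5.28% with XY011, and 1.48% and 2.1% with both. With 5 or more required in both libraries, SR2211 had 1 lower, XY011 had 1 lower, and 0 were higher and 0 lower with both, since DERL3 was removed in the SR2211 experiment and ERN1 (4.71 FPKM in the XY011 vehicle), SDF2L1 (3.37 FPKM with XY011) and DERL3 in the XY011 experiment. Over all genes left by that filter 3.69% were higher and 5.43% lower with SR2211, 6.04% and 9.75% with XY011, and 2.43% and 3.92% with both. With an offset of 0.1, 2 were higher with both, ERN1 and ATF6 (4.83% of all genes). Centring on the median gene and quantile scaling each gave 3 higher with both, ERN1, ATF6 and DNAJB9 (4% and 3.81% of all genes). They gave medians of -0.25 and -0.28 with XY011, and quantile scaling gave -0.12 with SR2211. The median gene itself had a log2 ratio of -0.08 with SR2211, -0.13 with XY011 and -0.02 with ENZ. Over all genes with SR2211, 620 were higher and 699 lower as deposited, 734 and 575 after centring, and 664 and 601 after quantile scaling. Over all genes with XY011, 957 were higher and 1663 lower as deposited, 1198 and 1354 after centring, and 1223 and 1257 after quantile scaling. The 1.5-fold rule gave 8 higher and 7 lower with SR2211, 12 lower with XY011, 2 higher and 5 lower with ENZ, and 6 higher and 7 lower with both SR2211 and XY011. No low-value filter and the listed symbols alone changed no count of the 35. No called gene changed sign under an offset or a scaling. No paired analysis was possible because each group is 1 library. With 1 library per group, no library could be left out, and depth is known for the SR2211 experiment alone.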
